A study of Mus musculus with 9 samples.

Results

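Apolipoproteins are the proteins that sit on the surface of lipoprotein particles, the carriers of cholesterol and triglyceride in blood. The genes described here are the 9 apolipoprotein genes Apoa1, Apoa2, Apoa4, Apoa5, Apob, Apoc1, Apoc3, Apoe and Apom, together with Lcat, the plasma enzyme that esterifies cholesterol on them. They were chosen by gene symbol, and all 10 symbols were found among the 22173 genes of the table. All 10 were also among the 9884 genes with a mean of at least 1 FPKM (fragments per kilobase of exon, relative to the library's total of mapped fragments), which were the genes tested.

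RNA was sequenced from mice with a sham operation, mice with bile duct ligation (BDL), and mice with BDL that also received senkyunolide A, a phthalide from Ligusticum herbs. Below, senkyunolide A as a group always means BDL plus senkyunolide A. Its comparison with sham thus joins ligation and compound, which cannot be told apart there. BDL ties off the main bile duct and causes cholestasis, the retention of bile in the liver. Each group had 3 libraries of polyA RNA, 9 in all, and every library is labelled as isolated cholangiocytes, the epithelial cells of the bile ducts. The sources used here do not give the strain, age, dose or time after surgery, nor whether each library is a separate animal or a pool. The spread behind each p-value is thus that from library to library, and it may be partly technical.

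The liver makes most plasma apolipoproteins, and hepatocytes are the liver cell that does so. Apolipoprotein B (Apob) is the scaffold of very-low-density lipoprotein (VLDL), which exports triglyceride, and apolipoprotein A-I (Apoa1) is the scaffold of high-density lipoprotein (HDL), which takes up cholesterol from tissues. The smaller apolipoproteins exchange between particles and steer the lipases and receptors that clear them, and plasma lipoproteins are known to be abnormal in cholestasis.

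The label was set against cell type markers before the genes were read. The 28 hepatocyte markers, led by albumin (Alb), took between 13.9% and 16.2% of the summed FPKM in sham, with 11.8% to 16.7% for BDL and 11.6% to 14.0% where senkyunolide A was given. Alb itself read 21395 to 46222 FPKM. The 21 biliary markers took between 0.0148% and 0.0218% in sham, with 0.0293% to 0.139% for BDL and 0.0227% to 0.0903% where senkyunolide A was given. Keratin 19 (Krt19), a defining cholangiocyte gene, read 0.672 to 6.7 FPKM, and the secretin receptor gene Sctr read at most 0.0886 FPKM. The biliary markers summed to 74.1 to 678 FPKM, mostly from other genes of the list, so Krt19 and Sctr do not describe that sum. Of the 21 biliary markers 11 had a mean high enough to be tested. Hepatocyte transcripts thus made up far more of each library than biliary ones, and the values below are those of libraries labelled cholangiocyte, not of pure cholangiocytes. Of the tested markers of other cells, limma called higher in BDL against sham 7 of 16 macrophage, 3 of 4 neutrophil, 1 of 4 lymphocyte and 3 of 11 biliary genes, and lower 3 of 12 stellate and 3 of 28 hepatocyte genes. It called 0 of 11 endothelial and 0 of 2 enterocyte genes there. Their part in the results below was not tested. The intestine is the other main source of Apoa1, Apoa4 and Apob, and the 9 enterocyte markers summed to 78.7 to 115 FPKM in sham, 32.4 to 65.2 FPKM in BDL and 30.9 to 83.6 FPKM where senkyunolide A was given. Nearly all of that sum came from Fabp2, at 7.02 to 93.9 FPKM, and Anpep, at 11.8 to 38.7 FPKM. Alpi, Sis and Cdx2 were listed at 0 in all 9 libraries, and Lct read at most 0.00524 FPKM. The sum thus describes Fabp2 and Anpep rather than the 9 markers together.

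Among the 10 genes, 4 stood among the most abundant transcripts of the table. Apoa1 ranked between 2 and 6 of all genes in the 9 libraries, Apoe between 4 and 21, Apoa2 between 8 and 27 and Apoc1 between 9 and 23. Apoc3 followed at ranks 36 to 52, and Apoa4 was the least abundant, at ranks 806 to 1823. In the sham libraries the order of mean levels was Apoa1, Apoe, Apoa2, Apoc1, Apoc3, Apob, Apoa5, Apom, Lcat and Apoa4. Apoe and Apoa2, Apob and Apoa5, and Apoa5 and Apom changed places between sham libraries, so their order is not resolved. The sham ranges of Apoa2 and Apoc1 also overlapped, but Apoa2 read above Apoc1 within each sham library. In BDL the mean of Apoc1 stood above that of Apoa2, and with senkyunolide A it also stood above that of Apoe.

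The estimated depth was 27.3 to 33.8 M (mega) fragments per library, so counting error was small beside the spread between libraries. The fewest fragments behind any value of the 10 genes were an estimated 1620, for Apoa4. The pooled standard deviation (SD) between libraries of a group ran from 0.22 on the log2 scale for Apoa1 to 0.53 for Lcat, beside a median of 0.30 over all tested genes. The first library of BDL plus senkyunolide A stood apart from the other two of its group in several genes below, and the second BDL library stood apart in others, so both are named where they matter.

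**Figure D1:**
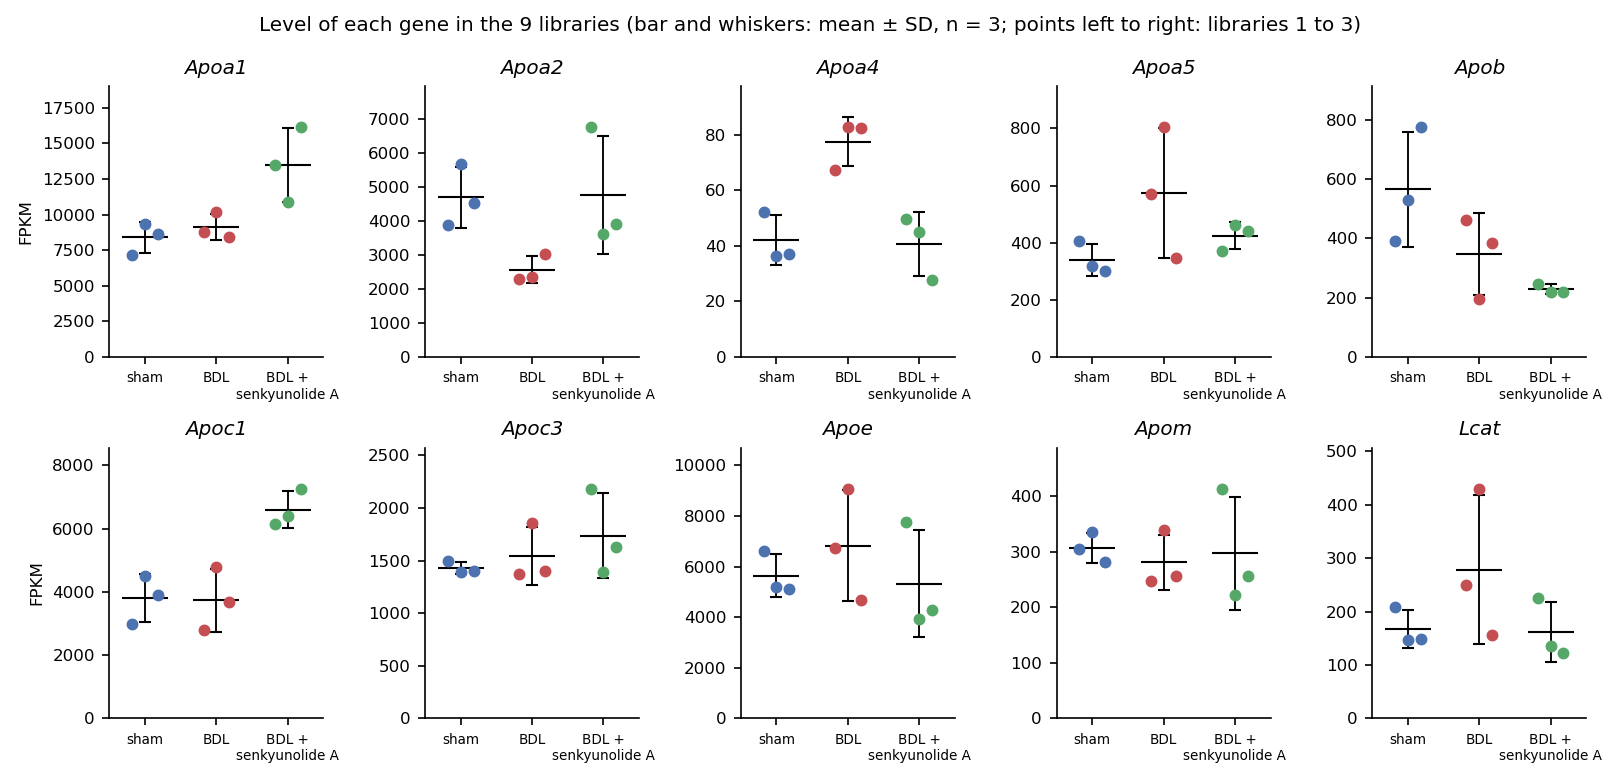
Level of each of the 10 genes (FPKM, linear axis from 0) in the 3 libraries of each group, drawn from left to right as libraries 1 to 3, with the mean and SD of the group (n = 3). Apoa4 is between 67.3 and 82.7 FPKM in the BDL libraries and at or below 52.3 FPKM in the other 6, while Apoc1 is at or above 6145 FPKM with senkyunolide A and at or below 4771 FPKM in the other 6.

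Across the whole table, limma (Benjamini-Hochberg adjusted p under 0.05) called 11.0% of the tested genes between BDL and sham, 0.0101% between BDL plus senkyunolide A and BDL, and 2.17% between BDL plus senkyunolide A and sham. Of the 10 genes, 0 were called in any of the 3 comparisons. At an unadjusted p under 0.05, 3 of the 10 stood out in each comparison, against 28.6%, 12.3% and 23.2% of all genes in the same order. The libraries of both groups did not overlap for 2, 4 and 3 of the 10, against 30.5%, 17.6% and 29.6% of all genes. In the comparisons with sham these counts were near or below the background shares, and nothing particular to the 10 genes is read from any of them. The comparisons share libraries, so they are not independent of each other. In bulk libraries fewer cells of a type and less RNA per cell cannot be told apart, which holds for every level below. The median log2 difference of the 10 genes was 0.11, -0.16 and -0.05 in that order, beside 0.15, -0.12 and 0.04 over all tested genes.

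**Figure D2:**
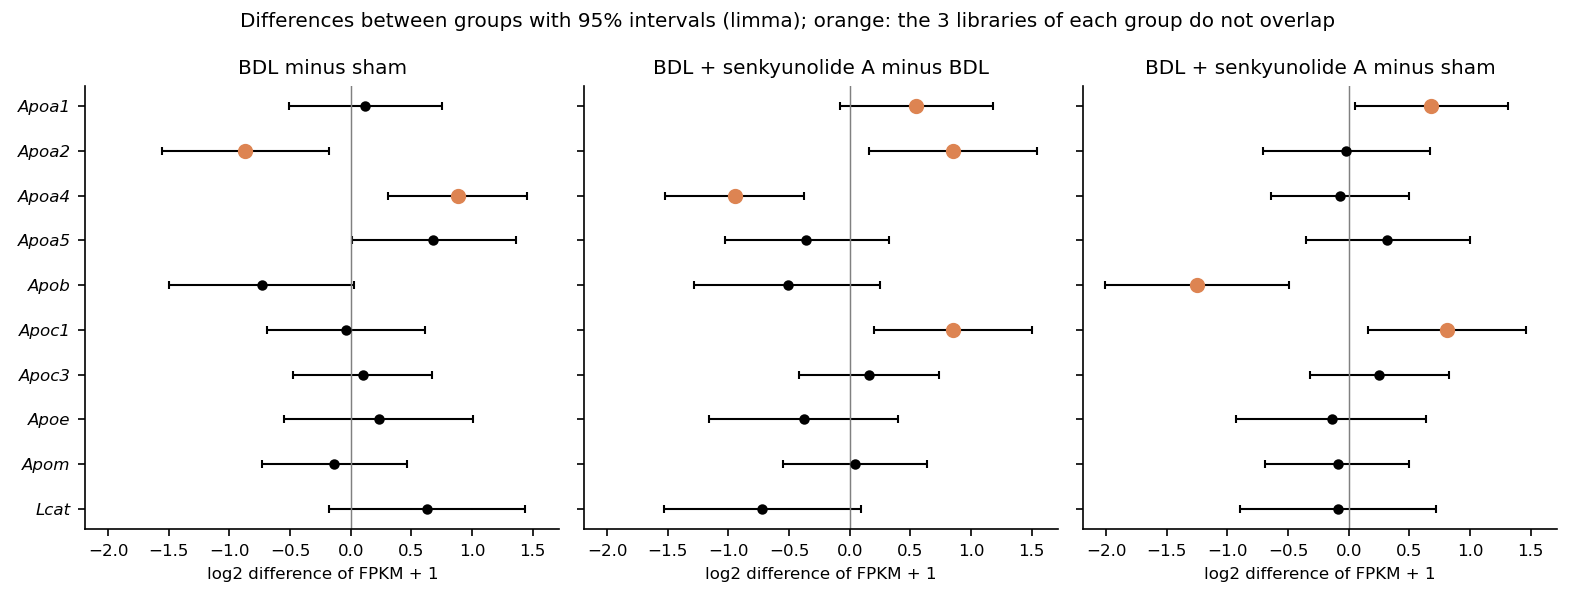
Log2 difference of FPKM + 1 between groups for each gene, with its limma 95% interval. Orange points mark genes whose 3 libraries in one group do not overlap the 3 in the other: Apoa2 and Apoa4 in BDL against sham, Apoa1, Apoa2, Apoa4 and Apoc1 in senkyunolide A against BDL, and Apoa1, Apob and Apoc1 in senkyunolide A against sham.

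Apoa1 encodes the main structural protein of HDL, which also activates LCAT. It read 7188, 9342 and 8632 FPKM in sham, 8747, 10158 and 8413 FPKM in BDL, and 13453, 10890 and 16130 FPKM in BDL plus senkyunolide A. All 3 libraries with senkyunolide A were above all 6 others. The mean was 8387 ± 1098 FPKM in sham, 9106 ± 926 FPKM in BDL and 13491 ± 2620 FPKM with senkyunolide A (SD, n = 3 each). With senkyunolide A the level was 1.48 times that in BDL (log2 difference 0.55 ± 0.29 SE, limma adjusted p = 0.426) and 1.61 times that in sham (0.68 ± 0.29, limma adjusted p = 0.186). Neither difference passed the test, although the groups did not overlap. BDL and sham differed by 0.12 on the log2 scale, with a 95% interval of -0.51 to 0.75.

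Apoa2 encodes the next most abundant protein of HDL and had a different profile. It read 3899, 5675 and 4544 FPKM in sham, 2297, 2365 and 3021 FPKM in BDL, and 6765, 3632 and 3915 FPKM with senkyunolide A. Every BDL library lay below every library of the other groups, and the first senkyunolide A library was the highest of the 9. The BDL mean was 0.544 times the sham mean (log2 difference -0.87 ± 0.31 SE, limma adjusted p = 0.0973). The senkyunolide A mean was 1.86 times the BDL mean (0.85 ± 0.31, limma adjusted p = 0.407) and 1.01 times the sham mean. Neither of the first 2 differences passed. Over the 19 alternatives the log2 difference between senkyunolide A and sham ran from -0.68 to 0.15, so a level equal to sham is not established. Between BDL and sham limma called Apoa2 when the first senkyunolide A library, which adds only to the estimate of the spread, was left out (adjusted p = 0.0359), and also when the trend on transcript length described below was removed (-1.23, adjusted p = 0.0347).

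The ratio of Apoa1 to Apoa2 within a library separated sham from the others. The ratio was 1.84, 1.65 and 1.90 in sham, 3.81, 4.29 and 2.79 in BDL, and 1.99, 3.0 and 4.12 with senkyunolide A. The lowest value outside sham, in the first senkyunolide A library, was close to the highest sham value. It was 1 of 5 ratios between these genes that were chosen after the values were seen. Over their 15 exact permutation tests the smallest adjusted p was 0.214. None could pass, since 3 libraries against 3 cannot give an unadjusted p below 0.1. The ratio of Apob to Apoa1 did not overlap sham in BDL (log2 difference -0.86) or with senkyunolide A (-1.93). Between senkyunolide A and BDL it overlapped (-1.07). The ratio of Apoc3 to Apoa1 overlapped in every comparison.

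Apoa4, an apolipoprotein of HDL and chylomicrons that mouse liver makes as well as intestine, had the smallest p of the 10 in BDL against sham and in senkyunolide A against BDL. It read 52.3, 36.5 and 37.2 FPKM in sham, 67.3, 82.7 and 82.4 FPKM in BDL, and 49.6, 44.8 and 27.5 FPKM with senkyunolide A. The BDL libraries lay above all 6 others. The BDL mean was 1.85 times the sham mean (log2 difference 0.88 ± 0.26 SE, limma adjusted p = 0.0527), just short of the threshold. The senkyunolide A mean was 0.524 times the BDL mean (-0.95 ± 0.26, limma adjusted p = 0.407) and 0.968 times the sham mean. Against sham the 95% interval of its log2 difference ran from -0.64 to 0.50.

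The Apoa4 call between BDL and sham moved with single libraries. Limma called it without the first sham library (adjusted p = 0.0411), without the first senkyunolide A library (adjusted p = 0.0259) and without the third (adjusted p = 0.037). It also did so when only the libraries of BDL and sham were fitted (adjusted p = 0.0285), and the adjusted p over all alternatives ran from 0.0259 to 0.206. On the annotation 34.8% of the exon bases of Apoa4 lie opposite the antisense gene Gm10680 and 34.9% opposite Gm47528. Neither antisense gene has a value in the table, and the sources used here do not say whether fragments were counted by strand, so reads of Apoa4 and of these transcripts cannot be told apart.

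Apoa5 encodes a low-abundance activator of lipoprotein lipase, the enzyme that releases fatty acids from triglyceride in the blood. It read 404, 318 and 299 FPKM in sham, 571, 804 and 347 FPKM in BDL, and 371, 461 and 442 FPKM with senkyunolide A. The third BDL library lay within the sham range while the second was the highest of the 9. The log2 difference between BDL and sham was 0.68 ± 0.31 (SE, limma adjusted p = 0.169), and limma called it without the third BDL library (adjusted p = 0.0355). Of its exon bases 20.8% lie opposite the antisense gene Gm47544, with the same uncertainty as for Apoa4.

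Apoa1, Apoc3, Apoa4 and Apoa5 lie side by side on chromosome 9 of GRCm38. Apoa1 spans chr9:46228630-46230469 on the + strand, Apoc3 chr9:46233050-46235636 on the - strand, Apoa4 chr9:46240844-46243458 on the + strand and Apoa5 chr9:46268608-46271921 on the + strand. Of the 4 neighbours, Apoa4 was highest in the 3 BDL libraries and Apoa1 in the 3 senkyunolide A libraries. The groups overlapped for Apoc3 and Apoa5 in every comparison. Between BDL and sham the log2 difference was 0.10 for Apoc3 and 0.68 for Apoa5. None of the 4 was called in any comparison, so they are not sorted by profile. The ratio of Apoa4 to Apoa1 lay between 0.00391 and 0.00728 in sham, 0.0077 and 0.0098 in BDL, and 0.00171 and 0.00411 with senkyunolide A, so BDL stood above both other groups in every library. It was another of the 5 ratios, with an adjusted exact permutation p of 0.214 for BDL against sham and for senkyunolide A against BDL.

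Apoc3 encodes an inhibitor of lipoprotein lipase and of the uptake of triglyceride-rich particles, and its highest and lowest libraries were the closest of the 10. It read 1495, 1391 and 1403 FPKM in sham, 1371, 1858 and 1398 FPKM in BDL, and 2183, 1392 and 1633 FPKM with senkyunolide A. The highest was 1.59 times the lowest, and the groups overlapped throughout. The 95% interval of the log2 difference ran from -0.48 to 0.67 between BDL and sham and from -0.42 to 0.74 between senkyunolide A and BDL, so differences of up to about that size in either direction were not resolved.

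Apob was the gene with the smallest p of the 10 between senkyunolide A and sham. It read 389, 530 and 774 FPKM in sham, 461, 194 and 385 FPKM in BDL, and 247, 218 and 219 FPKM with senkyunolide A. All 3 senkyunolide A libraries lay below all sham libraries, while the BDL libraries overlapped both. The mean was 564 ± 195 FPKM in sham, 347 ± 137 FPKM in BDL and 228 ± 16.7 FPKM with senkyunolide A (SD, n = 3 each). The senkyunolide A mean was 0.404 times the sham mean (log2 difference -1.25 ± 0.35 SE, limma adjusted p = 0.068), which did not pass. Limma called it without the first senkyunolide A library (adjusted p = 0.0351). Between BDL and sham the log2 difference was -0.73 ± 0.35 (limma adjusted p = 0.19), and the second BDL library was the lowest of the 9.

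Apob lies at chr12:7977629-8016839 and its exons cover 13934 bases, whereas those of Apoa2 cover 537 and those of Apoc1 744. Length matters here because the differences of all genes moved with it. Between senkyunolide A and sham the median log2 difference was 0.59 over the 121 tested genes with exons under 800 bases and -0.21 over the 807 genes with exons over 10000 bases. Between senkyunolide A and BDL the same classes stood at 0.29 and -0.21, and between BDL and sham at 0.32 and 0.00. With the trend on length removed, an alternative chosen after the data were seen, the log2 difference of Apob from sham was -1.05, that of Apoc1 0.24 and that of Apoa1 0.26. The cause of the trend was not tested.

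**Figure D3:**
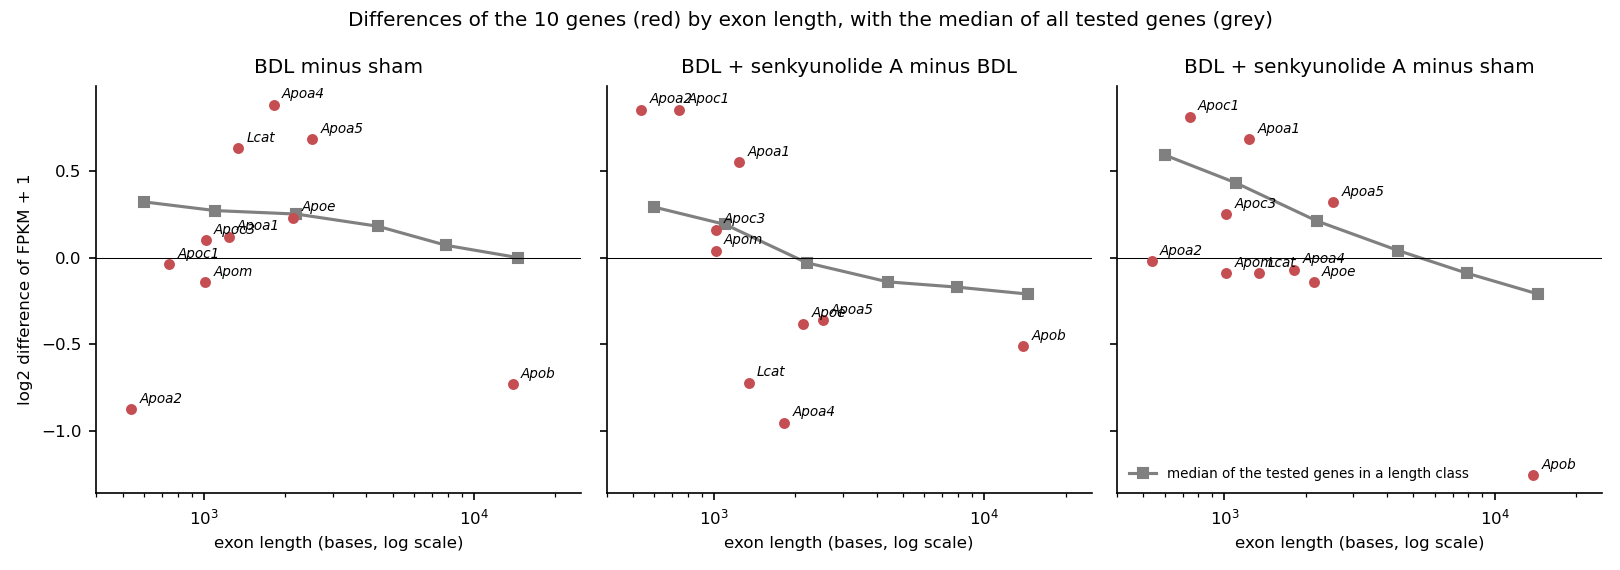
Log2 difference of FPKM + 1 of each of the 10 genes (red) against its exon length in bases (log axis), in the 3 comparisons, with the median difference of all tested genes in 6 length classes (grey, drawn at a point within each class). With senkyunolide A against sham the grey medians go from 0.59 under 800 bases to -0.21 over 10000 bases, and Apoc1, Apoa1 and Apob lie farther out on the same sides. Apoa2, also under 800 bases, lies at -0.02 there.

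Apoc1 encodes a small apolipoprotein that inhibits lipoprotein lipase and receptor uptake. It read 2998, 4492 and 3898 FPKM in sham, 2782, 4771 and 3667 FPKM in BDL, and 6145, 6383 and 7257 FPKM with senkyunolide A. The senkyunolide A libraries lay above all 6 others and close together. Their mean was 1.76 times the BDL mean (log2 difference 0.85 ± 0.30 SE, limma adjusted p = 0.407) and 1.74 times the sham mean (0.81 ± 0.30, limma adjusted p = 0.133), and neither passed. With the trend on length removed these became 0.61 and 0.24. Between BDL and sham the difference was -0.04, with a 95% interval from -0.69 to 0.61.

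Apoe, the ligand by which receptors of the low-density lipoprotein (LDL) receptor family take up remnant particles, lies next to Apoc1 on chromosome 7, at chr7:19696244-19701310 against chr7:19689480-19692659, both on the - strand. It read 6625, 5195 and 5120 FPKM in sham, 6748, 9077 and 4678 FPKM in BDL, and 7756, 3940 and 4267 FPKM with senkyunolide A. The groups overlapped, with the first senkyunolide A library well above the other two of its group. The log2 difference was 0.23 between BDL and sham (95% interval -0.55 to 1.01) and -0.38 between senkyunolide A and BDL (-1.16 to 0.40). Macrophages also make Apoe, and the 16 macrophage markers took between 0.0657% and 0.0871% of the summed FPKM in sham, 0.193% and 0.292% in BDL, and 0.115% and 0.47% with senkyunolide A. Their part in the Apoe level was not tested.

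The ratio of Apoc1 to Apoe, which are neighbours, was 0.453, 0.865 and 0.761 in sham, 0.412, 0.526 and 0.784 in BDL, and 0.792, 1.62 and 1.70 with senkyunolide A. The second and the third senkyunolide A libraries stood apart from all the rest, and the first lay close to the highest BDL library. This was also 1 of the 5 ratios, with an adjusted exact permutation p of 0.214 for senkyunolide A against BDL.

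Apom, a carrier of sphingosine-1-phosphate on HDL, at chr17:35128997-35131801, read 305, 335 and 281 FPKM in sham, 248, 338 and 257 FPKM in BDL, and 413, 222 and 256 FPKM with senkyunolide A. The groups overlapped in every comparison, and the first senkyunolide A library held the highest value of the 9 while the second held the lowest. The 95% interval of the log2 difference was -0.73 to 0.46 between BDL and sham and -0.55 to 0.64 between senkyunolide A and BDL.

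Lcat encodes the enzyme that turns free cholesterol on HDL into cholesteryl ester. It read 209, 147 and 148 FPKM in sham, 250, 430 and 156 FPKM in BDL, and 226, 136 and 122 FPKM with senkyunolide A. The second BDL library held the highest value and the third lay within the sham range. The log2 difference was 0.63 ± 0.37 between BDL and sham (SE, limma adjusted p = 0.291) and -0.72 ± 0.37 between senkyunolide A and BDL (limma adjusted p = 0.424), and the groups overlapped in both.

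Leaving out the first senkyunolide A library changed which genes stood apart. With it, the groups of senkyunolide A and BDL did not overlap for Apoa1, Apoa2 and Apoc1 (higher) and Apoa4 (lower). Without it they did not overlap for the same 4 and for Apoe and Lcat (lower), against 47.7% of all genes. Against sham, without it, Apoa1, Apoa5 and Apoc1 were higher and Apob, Apoe, Apom and Lcat lower in both remaining libraries, against 57.0% of all genes. The shares of all genes are larger here by construction, since fewer libraries remained to overlap.

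Taken as one quantity, the 10 genes held 5.05%, 5.30% and 5.02% of the summed FPKM in sham, 5.09%, 5.96% and 4.60% in BDL, and 7.01%, 5.15% and 6.29% with senkyunolide A. The second senkyunolide A library lay within the sham range and the other two lay above all sham and BDL libraries. The means were 5.12 ± 0.156%, 5.22 ± 0.690% and 6.15 ± 0.936% (SD, n = 3). The exact permutation test over the libraries gave p = 0.8 for BDL against sham and p = 0.2 for senkyunolide A against each other group (two-sided, where 3 against 3 cannot go below 0.1). The sum includes genes with short exons (Apoa1, Apoa2 and Apoc1) and was not corrected for length. Between senkyunolide A and sham the median log2 difference of all genes was 0.59 under 800 bases and 0.43 from 800 to 1500 bases. The part of length in the sum, and in the ratios and shares below, was not tested.

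Because these genes are hepatocyte transcripts, their sum was also set against that of the 28 hepatocyte markers. The ratio was 0.363, 0.327 and 0.330 in sham, 0.305, 0.506 and 0.316 in BDL, and 0.499, 0.443 and 0.488 with senkyunolide A. Senkyunolide A did not overlap sham (exact permutation p = 0.1, the smallest that 3 against 3 allows), but it overlapped BDL through the second BDL library (exact permutation p = 0.4). With Alb left out of the markers, the ratio was 0.943, 0.694 and 0.839 with senkyunolide A and 0.658, 0.728 and 0.677 in sham, and the groups overlapped (exact permutation p = 0.2).

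Apoa1 made up 33.0 ± 2.13% of the summed FPKM of the 10 genes in sham, 36.2 ± 2.08% in BDL and 40.9 ± 5.72% with senkyunolide A (SD, n = 3). Apoa2 made up 18.4 ± 2.08%, 10.4 ± 2.86% and 14.2 ± 3.38%, and Apoe 22.5 ± 4.95%, 26.6 ± 4.99% and 15.8 ± 4.26% in the same order. Apoc1 went from 14.9 ± 1.90% in sham and 14.7 ± 2.49% in BDL to 20.3 ± 3.59% with senkyunolide A. Apob made up 2.22 ± 0.757% in sham and 0.698 ± 0.0877% with senkyunolide A. These shares are of one total, so a larger share of one gene lowers those of the others.

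**Figure D4:**
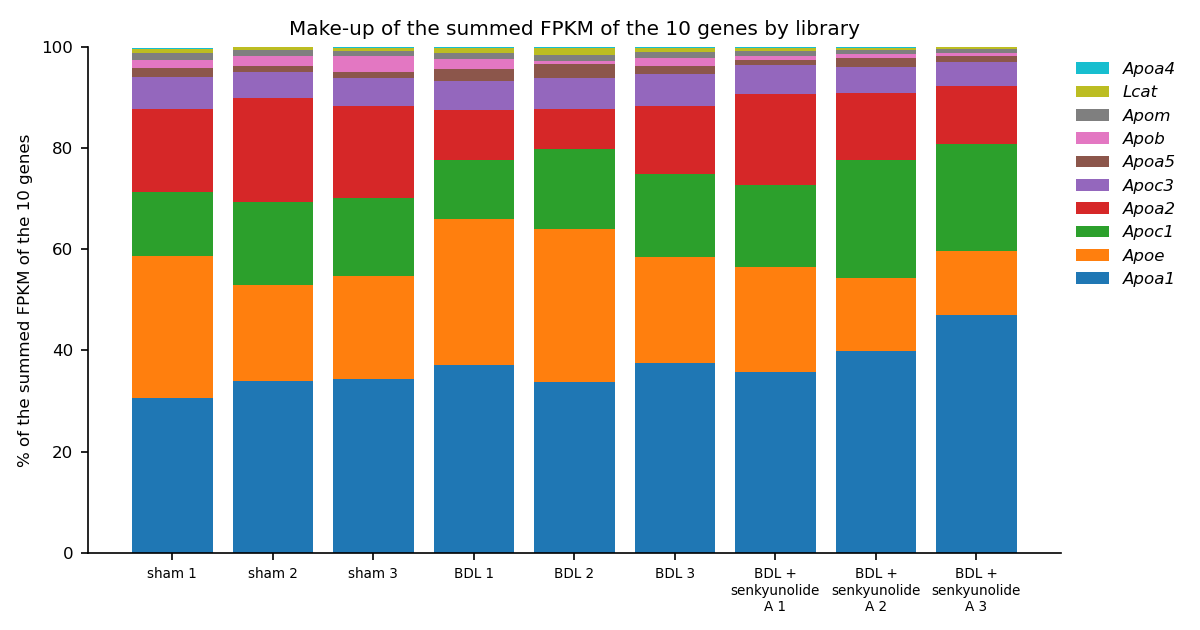
Share of each gene in the summed FPKM of the 10 genes (%, from 0 to 100) in each library. Apoa1 fills 30.5% to 47.1% of the bars, and Apoa2 fills 7.86% to 13.5% in the BDL libraries against 16.5% to 20.7% in sham.

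Promoter windows of 250 bases upstream of the start were taken from RefSeq on GRCm38.p6, where 8 of the 10 genes had entries, with 12 windows in all. Those of Apoa1, Apoa4 and the first start of Apoa2 are printed, since the groups of these genes did not overlap in at least 1 comparison and these windows end at the base before the gene spans of the annotation. Capitals mark CAAAGTTCA, one of the 2 spellings searched of the core motif of HNF4A, a transcription factor of hepatocytes. All are written 5′ to 3′ on the + strand.
Apoa1, chr9:46228380-46228629: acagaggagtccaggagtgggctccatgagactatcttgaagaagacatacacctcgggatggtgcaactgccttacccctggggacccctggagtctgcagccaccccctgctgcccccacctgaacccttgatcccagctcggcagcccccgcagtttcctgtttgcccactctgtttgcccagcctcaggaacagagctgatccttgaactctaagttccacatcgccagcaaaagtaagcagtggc
Apoa2, chr1:171221314-171221563: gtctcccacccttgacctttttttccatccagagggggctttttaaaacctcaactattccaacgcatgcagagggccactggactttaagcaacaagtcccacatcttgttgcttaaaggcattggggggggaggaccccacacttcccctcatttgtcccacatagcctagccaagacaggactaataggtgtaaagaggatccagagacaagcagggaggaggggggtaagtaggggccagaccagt
Apoa4, chr9:46240594-46240843: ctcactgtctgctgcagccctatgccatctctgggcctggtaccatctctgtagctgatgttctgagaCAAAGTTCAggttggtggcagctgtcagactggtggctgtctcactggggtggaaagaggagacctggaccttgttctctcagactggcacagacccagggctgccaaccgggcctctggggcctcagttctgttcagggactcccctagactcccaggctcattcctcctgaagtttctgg

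The HNF4A core (CAAAGTCCA or CAAAGTTCA, both strands) was found in 1 of the 12 windows, that of Apoa4, where it begins 182 bases upstream of the start. It occurs in 0.715% of the 32851 promoter windows of that length. TATAAA, the letters of the TATA box, searched on both strands, was found in 5 of the 12 windows (41.7%), of Apoa2, Apoe, Apoa5 and Apob, against 12.4% of all windows. Both Apoa5 windows hold the same match, counted in each, 31 and 56 bases upstream of their starts. In Apoa2 it begins 212 bases upstream of a start whose window is not printed. In Apoe it begins 100 and 96 bases upstream of 1 of its starts. In Apob it begins 60 bases upstream of the start used for its promoter window, which lies downstream of the start of the gene span given above. The windows of a gene with several starts can overlap, so they are not independent, and a match describes the letters only.

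The pathway around these genes was read from 6 lists of 85 genes, of which 72 were tested. In BDL against sham, 12 of the 72 were called, 8 higher and 4 lower, against 11.0% of all genes. The direction of calls depended on the scaling. With median-ratio scaling, which moves the median difference of all genes from 0.15 to -0.02, 7 were higher and 10 lower, and with quantile normalization 7 were higher and 8 lower. Over all genes the split was 803 higher and 281 lower, and it became 524 and 502 with median-ratio scaling and 452 and 473 with quantile normalization.

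Of the 9 other apolipoproteins tested, 1 was called between BDL and sham, namely clusterin (Clu, also called apolipoprotein J), a secreted chaperone found on HDL. Clu read 617, 454 and 495 FPKM in sham, 1654, 1868 and 1760 FPKM in BDL, and 693, 1225 and 1401 FPKM with senkyunolide A. It rose 3.37-fold in BDL (log2 difference 1.76 ± 0.30 SE, limma adjusted p = 0.00718), and it was called under all 19 alternatives, with adjusted p from 0.000441 to 0.0476. The list's median was -0.17. Apoc2 read 2.07 to 8.88 FPKM over the 9 libraries, but 79.5% of its exon bases are shared with the annotated gene Gm44805 on the same strand, so its value is uncertain.

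Of the 16 genes for VLDL assembly, 2 were called between BDL and sham, and the list's median was -0.01. Mttp, the microsomal transfer protein that loads lipid onto apolipoprotein B, read 101, 86.9 and 98.7 FPKM in sham, 60.1, 37.0 and 50.8 FPKM in BDL, and 50.5, 47.8 and 41.0 FPKM with senkyunolide A. It fell to 0.516 times the sham level in BDL (log2 difference -0.96 ± 0.23 SE, limma adjusted p = 0.024) and to 0.486 times with senkyunolide A (-1.03 ± 0.23, limma adjusted p = 0.047). All sham libraries lay above all others. Tm6sf2, a membrane protein needed for full lipidation of VLDL, rose 2.79-fold in BDL (1.37 ± 0.26, limma adjusted p = 0.0128), from 8.33 to 11.7 FPKM in sham to 20.2 to 36.4 FPKM in BDL. It read 12.2 to 19.0 FPKM with senkyunolide A. The BDL calls of Mttp and Tm6sf2 each held in 16 of 19 alternatives, and the call of Mttp with senkyunolide A in 8.

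Of the 11 genes for HDL formation and remodelling, 3 were called, and the median was 0.48. Pltp, the phospholipid transfer protein that feeds HDL, rose 3.38-fold (log2 difference 1.69 ± 0.38 SE, limma adjusted p = 0.0215), from 10.4 to 26.4 FPKM in sham to 33.2 to 86.9 FPKM in BDL. Abcg1, which exports cholesterol to HDL and is strongly expressed in macrophages, rose from 0.799 to 1.61 FPKM to 3.42 to 3.99 FPKM (1.05 ± 0.28, limma adjusted p = 0.0347). Pon1, the paraoxonase carried on HDL, fell to 0.439 times its sham level (-1.19 ± 0.29, limma adjusted p = 0.0266). The call held in 8 of 18 alternatives for Abcg1 (adjusted p up to 0.157, and 0.0535 with median-ratio scaling), and in 15 and 14 of 19 for Pltp and Pon1. The part of the macrophage markers in the Abcg1 difference was not tested.

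Of the 7 lipase genes, 1 was called and the median was -0.04. Lpl, lipoprotein lipase, rose 4.97-fold in BDL (log2 difference 2.16 ± 0.40 SE, limma adjusted p = 0.0117) and 4.52-fold with senkyunolide A (1.92 ± 0.40, limma adjusted p = 0.0408), both against sham. It read 11.1, 11.9 and 13.3 FPKM in sham, 83.3, 58.5 and 38.7 FPKM in BDL, and 25.1, 50.4 and 88.8 FPKM with senkyunolide A. The BDL call held in 17 of 19 alternatives and that with senkyunolide A in 8. Macrophages also express Lpl, and their part was not tested.

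Of the 9 receptor genes, 2 were called higher in BDL and the median was 0.89. Lsr, the lipolysis-stimulated lipoprotein receptor, rose 2.74-fold (log2 difference 1.46 ± 0.30 SE, limma adjusted p = 0.0154). Sdc1, a heparan sulfate proteoglycan that binds remnant particles on hepatocytes, rose 2.54-fold (1.30 ± 0.28, limma adjusted p = 0.0184). Both calls held in 16 of 19 alternatives. Other epithelia express both as well, and the part of the biliary markers in these differences was not tested.

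Of the 20 tested regulators, 3 were called and the median was 0.06. Srebf2, which drives cholesterol synthesis genes, rose 2.65-fold in BDL (log2 difference 1.32 ± 0.33 SE, limma adjusted p = 0.0306). Ppara, the nuclear receptor of fatty acid oxidation, fell to 0.417 times its sham level (-1.18 ± 0.34, limma adjusted p = 0.0487). Nr0b2, the bile acid responsive repressor SHP, fell to 0.367 times its sham level (-1.34 ± 0.38, limma adjusted p = 0.047), reading 55.2, 28.0 and 19.4 FPKM in sham, 7.57, 10.9 and 19.2 FPKM in BDL, and 28.6, 39.5 and 32.2 FPKM with senkyunolide A. Of the 19 alternatives, the call held in 14 for Srebf2, in 9 for Ppara and in 8 for Nr0b2. The adjusted p reached 0.138 for Srebf2, 0.15 for Ppara and 0.162 for Nr0b2.

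The number of pathway calls between BDL and sham depended on which library was left out. Of the 72 tested genes of the lists, 1 was called without the second sham library, 2 without the third, 7 without the first BDL library and 1 without the second, whereas 21 were called without the first senkyunolide A library. Calls over all genes moved the same way, from 1084 to 174, 153, 722, 193 and 1722 in that order. Without the first sham library 15 pathway genes were called, and without the third BDL library 16. Without the second senkyunolide A library 10 were called, and without the third 12. Leaving out a sham or BDL library also leaves fewer libraries to compare.

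**Figure D5:**
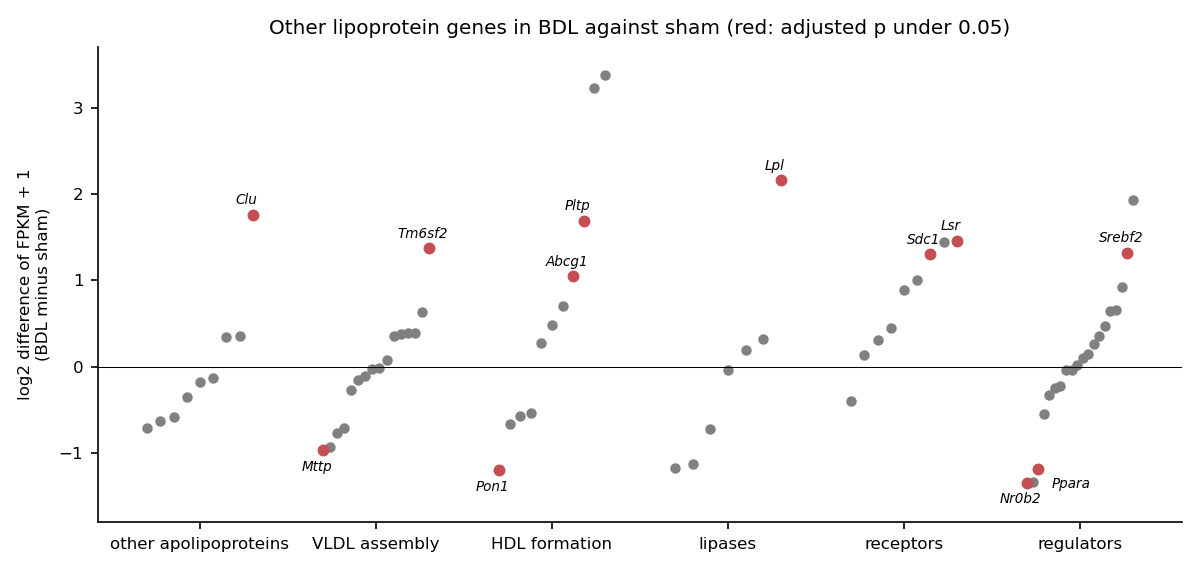
Log2 difference of FPKM + 1 between BDL and sham for the 72 tested genes of 6 lipoprotein lists, each point 1 gene, sorted within its list. The red points are the 12 genes with an adjusted p under 0.05 (8 above 0 and 4 below, or 7 and 10 called with median-ratio scaling), and the grey points above 3 are Saa1 (3.22, adjusted p = 0.149) and Saa2 (3.38, adjusted p = 0.151), acute-phase apolipoproteins of HDL.

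Comparing senkyunolide A with BDL, limma called 0 of the 72 pathway genes, and 19 of them had an unadjusted p under 0.05, against 12.3% of all genes. The gene with the smallest p of each list was Apon (log2 difference 0.95), Mia3 (-1.02), Saa4 (0.95), Lipc (0.98), Lsr (-1.17) and Nr0b2 (1.43), each with a limma adjusted p of 0.407. Lipc, hepatic lipase, read 66.0, 66.9 and 61.4 FPKM in sham, 25.4, 17.5 and 55.2 FPKM in BDL, and 68.1, 59.6 and 49.5 FPKM with senkyunolide A, and it was called without the third BDL library (adjusted p = 0.0311). Apon, an apolipoprotein gene named here only by its symbol, read 257, 243 and 259 FPKM in sham, 207, 202 and 187 FPKM in BDL, and 253, 443 and 501 FPKM with senkyunolide A, and it was called without the first senkyunolide A library (adjusted p = 0.0312).

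Between senkyunolide A and sham 2 of the 72 were called, Mttp and Lpl as given above, against 2.17% of all genes. In the other lists the smallest p belonged to Clu (log2 difference 1.03, limma adjusted p = 0.073), Abcg1 (1.17, adjusted p = 0.0513), Sdc1 (0.82, adjusted p = 0.111) and Ppara (-1.44, adjusted p = 0.0521). Without the first senkyunolide A library 17 of the lists' genes were called, 8 higher and 9 lower, and without the second or the third, or without any one of the 3 sham libraries, 0 were. Without the first BDL library 1 was called.

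For each of the 10 genes, the 3 genes were found whose log2(FPKM + 1), centred on its mean over the 9 libraries, differed least from its own. Apoc1 was matched by Ssr4 (mean absolute difference 0.078), Mrps28 (0.0921) and Psmb3 (0.105). Apom was matched by Cox5a (0.0892), Fdx1 (0.0931) and Uqcr10 (0.0958). Apoa2 was matched by Nit2 (0.122), Ndufb3 (0.152) and Acaa2 (0.158), and Apoa5 by Itga7 (0.0658), Fetub (0.0984) and Map1lc3b (0.105). The differences are not scaled to how much a gene varies, and Apob varied most of the 10, with a mean absolute deviation of 0.57. Unscaled, its matches were the least close, from 0.183 for 4932438A13Rik to 0.185 for Gprin3 and F830016B08Rik. For Apoa1 they were Rpp21 (0.0964), Mrpl58 and Psenen, for Apoa4 Atp9a (0.107), Srm and Rbm17, for Apoc3 Pop5 (0.0542), Phf5a and Clpp, for Apoe Pias4 (0.0695), Ddrgk1 and Xrcc1, and for Lcat Tmem259 (0.0988), Igfbp4 and Klhl21. None of the 10 had another of the 10 as a candidate, and a small difference over 9 libraries describes likeness of profile only.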

How the data were processed

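PolyA RNA was sequenced in 9 libraries labelled cholangiocyte, 3 per group, and groups were taken from the labels. The authors deposited 1 table of FPKM values per gene and library. The submitters' processing notes name build GRCm38 and DESeq2 1.20.0, featureCounts 1.5.0-p3, HISAT2 2.0.5, fastp and CASAVA 1.8. Their order, settings and use of strand are not stated. FPKM divide by transcript length and by the library total, so very abundant genes lower all others.

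The values were analysed as log2(FPKM + 1), which understates differences of low genes. The 9884 genes with a mean of at least 1 FPKM were fitted with limma 3.58.1 in R 4.3.3 (3 groups, variance trend, two-sided) and called at a Benjamini-Hochberg adjusted p under 0.05 over all of them. Single values per library were compared with exact permutation tests (SciPy 1.17.1). The procedure was tested on simulated data. Depth was estimated from low values: at the depth given, 39.9% to 43.9% of 535 to 589 values per library were whole fragments within 0.05, up to 20 fragments. Counts were not recovered, so no count test was run.

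The 10 genes, the pathway lists and the markers were chosen with earlier results of these data known. Named genes were the 10, up to 4 called genes per pathway list, or the gene with the smallest p where none was called. The length correction, a lowess trend on exon length with a span of 0.3, was added after seeing the data, and 95.2% of symbols had a GENCODE length. Promoters are from RefSeq (GRCm38.p6).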

Additional observations from a re-analysis of the deposited data

How the results depend on the processing

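Over 19 alternatives and 3 comparisons, 527 of the 570 values of the 10 genes kept their direction and their side of the threshold, 10 passed it and 33 changed sign. None of the 10 passed in any comparison in the main fit, so a sign change could only fall on a difference that had not passed. No alternative called any of the 10 between senkyunolide A and BDL. Between BDL and sham 1 of the 10 was called with hepatocyte marker scaling, with the 2 groups alone, without the variance trend (Apoa4 in these 3) and with the length correction (Apoa2).

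Calls over all genes between senkyunolide A and sham (214) became 418 with a pseudocount of 0.1, 3 with no filter, 131 with median-ratio scaling, 42 with quantile normalization, 136 with hepatocyte marker scaling, 60 with the 2 groups alone and 30 with the length correction. The pathway calls there (2) became 4, 0, 1, 0, 1, 0 and 0 in the same order. Between BDL and sham, 1084 calls became 520 with no filter and 678 with a mean of at least 5 FPKM, and the 12 pathway calls became 7 with no filter. Between senkyunolide A and BDL the 1 call was 0 with the 2 groups alone. The cause was not tested.

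With the replicate block 0 of the 10 genes were called in any comparison, and calls over all genes were 882, 0 and 374 (1084, 1 and 214 without it), with 6 pathway calls between senkyunolide A and sham. In deviations from their group means, same-numbered libraries of different groups correlated from -0.385 to 0.25 and the others from -0.404 to 0.382. With 3 libraries per mean, these values cannot show whether the numbers pair libraries.

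Signs changed as follows on the log2 scale. With median-ratio scaling Apoa1 was -0.09 and Apoc3 -0.12 between BDL and sham. With quantile normalization Apoc1 was 0.10 between BDL and sham, and Apoc3 was -0.12 and Apom -0.01 between senkyunolide A and BDL. With hepatocyte marker scaling Apoc1 was 0.06 between BDL and sham, and Apoa2 was 0.09, Apoa4 0.04, Apom 0.02 and Lcat 0.02 between senkyunolide A and sham. With the length correction Apoa1 was -0.18, Apoc3 -0.22 and Apoe -0.03 between BDL and sham, Apoc3 -0.00199 and Apom -0.12 between senkyunolide A and BDL, and Apoc3 -0.22 between senkyunolide A and sham. With Alb left out of the hepatocyte markers the difference of the 10 genes' sum per marker sum between BDL and sham was -0.0262.

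Leaving out each library in turn, calls over all genes ranged from 153 to 1722 between BDL and sham, 0 to 62 between senkyunolide A and BDL and 0 to 1806 between senkyunolide A and sham. Pathway calls ranged from 1 to 21, 0 to 2 and 0 to 17, and calls of the 10 genes from 0 to 2, 0 to 0 and 0 to 1. The difference between BDL and sham ranged from -0.282 to 0.399 percentage points for the share of summed FPKM and from -0.0294 to 0.0712 for the sum per marker sum. Ranges that crossed 0 were -0.23 to 0.16 for Apoc1 and -0.05 to 0.17 for Apoc3 between BDL and sham, and -0.02 to 0.31 for Apoc3 and -0.22 to 0.23 for Apom between senkyunolide A and BDL. Between senkyunolide A and sham they were -0.30 to 0.15 for Apoa2, -0.23 to 0.18 for Apoa4, -0.45 to 0.04 for Apoe, -0.36 to 0.09 for Apom and -0.36 to 0.08 for Lcat.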

Other observations

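Serum amyloid A1 and A2 (Saa1 and Saa2), acute-phase apolipoproteins that bind HDL during inflammation, had highest libraries 200 and 323 times their lowest, and they are described here after their values were seen. Saa1 read 31.9, 50.3 and 45.6 FPKM in sham, 165, 216 and 1755 FPKM in BDL, and 76.6, 6386 and 3444 FPKM with senkyunolide A. Saa2 read 21.8, 40.1 and 21.2 FPKM in sham, 135, 156 and 1109 FPKM in BDL, and 55.3, 6844 and 3765 FPKM with senkyunolide A. For both genes every library of BDL, alone or with senkyunolide A, lay above every sham library. The first senkyunolide A library lay below all libraries of BDL alone. Limma did not call either gene in any comparison (adjusted p = 0.149 and 0.151 for BDL against sham, 0.582 and 0.527 for senkyunolide A against BDL, 0.073 and 0.0648 for senkyunolide A against sham). The pair are near-identical copies, and their separate values are uncertain.

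Transthyretin (Ttr), a plasma carrier made by hepatocytes and one of the hepatocyte markers, read 4048, 5494 and 4456 FPKM in sham, 1472, 1510 and 2522 FPKM in BDL, and 5595, 2073 and 2746 FPKM with senkyunolide A. As with Apoa2, every BDL library lay below every sham library and the first senkyunolide A library was the highest of its group. Ttr was picked after the values were seen and does not stand for the hepatocyte markers. Over all 28 of them the median log2 difference between BDL and sham was 0.03, with 0 called higher and 3 lower.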
